A study of Mus musculus with 13 samples.

Results

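The genes described here are 8 mouse genes for voltage-gated sodium channels: the pore-forming alpha subunits Scn1a, Scn2a, Scn3a, Scn8a and Scn9a, and the auxiliary beta subunits Scn2b, Scn3b and Scn4b. They were chosen by symbol, through the GENCODE M21 gene names, out of 48709 genes in the deposited count tables, and all 8 had enough counts to be tested. The counts come from spinal motoneurons of mice that carry the SOD1-G93A transgene, a human SOD1 allele that causes amyotrophic lateral sclerosis in people and motoneuron loss in mice. The AAV-miR SOD1 group (4 mice) received, on postnatal day 2 and into the cerebral ventricles, an adeno-associated virus that makes an artificial microRNA against human SOD1 in astrocytes, the glial cells beside the neurons. In the AAV-miR ctrl group (5 mice) a control vector was injected in the same way. The non-injected group (4 mice) consisted of littermates left without injection. All 13 mice carried SOD1-G93A and all were 65 days old, so no value here comes from a mouse without the transgene. Each library is 1 mouse, from a pool of 500 motoneurons cut out of stained frozen lumbar cord by laser; the cord was frozen inside its vertebrae, and the promoter that restricts the vector to astrocytes is not given in the sources used here.

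A voltage-gated sodium channel opens when the membrane is depolarized and lets sodium into the cell, which produces the rising phase of the action potential. The alpha subunit is the channel itself. Beta subunits are small membrane proteins with an immunoglobulin-like domain that set gating and surface density and bind adhesion molecules. In motoneurons the channels are concentrated at the axon initial segment, where the action potential starts, and at the nodes of Ranvier, where it is renewed. Adult motoneurons are known for Nav1.6, the product of Scn8a, and Nav1.1, the product of Scn1a. Nav1.2 (Scn2a) and Nav1.3 (Scn3a) prevail in immature neurons, and Nav1.7 (Scn9a) is best known from sensory neurons.

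On the GRCm38 assembly with the GENCODE M21 annotation, 4 of the alpha genes lie in 1 cluster on chromosome 2. Scn3a (ENSMUSG00000057182, minus strand) spans chr2:65457118-65567627, Scn2a (ENSMUSG00000075318, plus strand) chr2:65620771-65767447, Scn1a (ENSMUSG00000064329, minus strand) chr2:66270778-66440840 and Scn9a (ENSMUSG00000075316, minus strand) chr2:66480080-66634962. Scn8a (ENSMUSG00000023033, plus strand) lies apart at chr15:100869858-101045938. Of the beta genes, all on the plus strand of chromosome 9, Scn2b (ENSMUSG00000070304) at chr9:45117782-45130070 and Scn4b (ENSMUSG00000046480) at chr9:45138395-45154152 are neighbours, and Scn3b (ENSMUSG00000049281) is at chr9:40269217-40291618. All 8 are protein-coding genes. The antisense gene Gm13629 covers 1.41% of the exonic bases of Scn9a, and no annotated gene overlaps the exons of the other 7.

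The alpha genes arose by duplication and still share exact stretches of coding sequence. This bears on their counts, because reads that align to several places are listed apart from the gene counts. The 37-base run below is the longest coding run shared by Scn1a and Scn8a, the alpha genes with the highest levels here, and lies across 2 exons of each gene (chr2:66289151-66296784, minus strand, and chr15:101024352-101029582, plus strand). It is written 5′ to 3′ in the sense of the transcript.
Scn1a and Scn8a: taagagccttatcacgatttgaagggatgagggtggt

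Of all different 50-base stretches of their annotated transcripts, 6.49% for Scn3a, 5.76% for Scn2a, 4.16% for Scn9a and 4.03% for Scn1a also occur in another gene, mostly in each other. The share was 0.04% for Scn8a, 1.01% for Scn2b and 0 for Scn3b and Scn4b. How many reads of these genes were lost in this way was not tested.

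Start regions were looked up in RefSeq (build GRCm38.p6) as the 250 bases before each annotated transcript start. A window was found for 6 of the 8 genes (8 windows, Scn2a and Scn8a having 2 each). By the GENCODE annotation 229 of the 250 bases of the Scn4b window lie in exons of the gene itself. The same holds for 94 bases of the Scn2b window and 3 of the Scn1a window. Scn1a and Scn8a are printed because these genes had the highest levels of the alpha genes and varied most alike of all pairs of the 8. The windows are chr2:66440838-66441087 (minus strand) for Scn1a and chr15:100870395-100870644 (plus strand, the more upstream of 2) for Scn8a, written 5′ to 3′ on the gene's strand with each CG dinucleotide in capitals.
Scn1a: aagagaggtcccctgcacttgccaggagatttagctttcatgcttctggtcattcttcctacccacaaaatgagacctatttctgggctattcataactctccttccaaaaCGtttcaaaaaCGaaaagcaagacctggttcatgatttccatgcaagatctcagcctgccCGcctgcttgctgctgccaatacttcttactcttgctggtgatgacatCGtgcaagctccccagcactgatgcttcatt
Scn8a: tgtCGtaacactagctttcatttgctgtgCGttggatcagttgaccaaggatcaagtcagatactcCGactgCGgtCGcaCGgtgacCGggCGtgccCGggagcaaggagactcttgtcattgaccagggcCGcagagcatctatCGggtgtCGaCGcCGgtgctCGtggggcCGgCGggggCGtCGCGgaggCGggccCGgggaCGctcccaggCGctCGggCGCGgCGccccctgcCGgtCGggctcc

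These windows differ in composition. The Scn1a window held 4 CG dinucleotides and 46.8% G and C, and the Scn8a window 30 CG dinucleotides and 68% G and C, where the median of 32851 mouse windows of this length was 6 CG dinucleotides and 52.4% G and C. Searched on both strands, the letters GGGCGG (32.7% of all windows), TCAGCACC (1.32%) and GGACAG (18.7%) were in none of the 8 windows, and TATAAA (12.4% of all windows) was in 1 of the 2 of Scn2a. These matches describe the letters in 250 bases and nothing more.

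The libraries held 13897189 to 37414222 counts assigned to genes, so that 3 counts correspond to 0.0802 to 0.216 per 1000000 counts before scaling. Levels are given in CPM (counts per 1000000 counts, scaled by the trimmed mean of M values, TMM). Entries for alignments that are not unique, which are not in the gene counts, made up 51.1% to 56.8% of all entries in the AAV-miR SOD1 group. The range was 44.6% to 53.8% in the AAV-miR ctrl group and 42.3% to 52.8% in the non-injected group. These are shares of entries and not of reads. Whether a read aligned to several places was entered once or once per place is not given in the sources used here. The part of this difference between the groups in the lower levels reported for AAV-miR SOD1 was not tested. Of 17403 genes tested with edgeR's quasi-likelihood test, none had an adjusted p under 0.05 in any of the 4 comparisons below (2529, 3635, 629 and 3870 had an unadjusted p under 0.05, and DESeq2 called 173, 996, 2 and 1480). Limma-voom with quality weights called 0, 0, 0 and 1461. In the last comparison, that with both control groups, edgeR called 1694 genes without AAV-miR ctrl replicate 1 and 121 without AAV-miR SOD1 replicate 3. In 2 deposited tables, that of non-injected replicate 3 and that of AAV-miR ctrl replicate 3, the column header contradicts the label. The labels were followed, and results for the members that rest on these libraries are also given without both.

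The captured cells were checked by markers. All 6 motoneuron markers (Chat, Slc5a7, Slc18a3, Isl1, Mnx1 and Prph) were detected in every library, with summed levels of 523 to 1025 CPM in the AAV-miR SOD1 group, 732 to 2262 CPM in the AAV-miR ctrl group and 904 to 2319 CPM in the non-injected group. RNA of other tissue was present as well. The 4 skeletal muscle markers (Acta1, Myh4, Ckm and Mylpf) summed to 5226 to 73500 CPM in the libraries of the AAV-miR SOD1 group, 14650 to 82360 CPM in the AAV-miR ctrl libraries and 21100 to 68390 CPM in the non-injected libraries. The 3 erythroid markers (Hba-a1, Hbb-bs and Alas2) summed to 14610 to 32150, 2426 to 19940 and 3834 to 14160 CPM in the same order, and all 3 were higher in AAV-miR SOD1 than in both control groups at an edgeR unadjusted p under 0.05, none at an adjusted p under 0.05. Of 7 microglia markers 3 were higher by the same rule. Of all genes tested, 10.2% were higher at this unadjusted p. The 5 oligodendrocyte markers (Mbp, Mog, Mag, Mobp and Cnp) summed to 997 to 2277, 937 to 3708 and 1518 to 2348 CPM. All 5 had a log2 fold change below 0 in AAV-miR SOD1 against both control groups (median -0.53), none at an unadjusted p under 0.05. Of all genes tested, 54.2% were below 0 and 12.1% were lower at this unadjusted p. The 7 astrocyte markers summed to 459 to 575, 568 to 1011 and 540 to 782 CPM. Against AAV-miR ctrl 7 were below 0, where 53.7% of all genes were, and against the non-injected group 4, where 55.1% were. In each of these 2 comparisons 1 astrocyte marker, Aldoc, was lower at an unadjusted p under 0.05, where 8.54% and 11.5% of all genes were. Its log2 fold change was -1.03 (edgeR adjusted p = 0.256) and -0.885 (edgeR adjusted p = 0.14). Beyond the fits with marker scores, the part of these cells' RNA in the values of the sodium channel genes was not tested. In such bulk samples, fewer cells of a type and less RNA per cell cannot be told apart.

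Per kilobase of exon, Scn4b, Scn1a and Scn8a had the highest median levels of the 8 genes. The median over the 13 libraries was 53.1 CPM per kilobase for Scn4b (24.3 to 72.2), 11.9 for Scn1a (7.54 to 21.1) and 6.13 for Scn8a (3.63 to 12.5). Scn4b was above Scn1a in 13 of 13 libraries, and Scn1a above Scn8a in 13 of 13. A step lower came Scn2b (median 0.826 CPM per kilobase), Scn9a (0.694), Scn2a (0.471), Scn3b (0.241) and Scn3a (0.124). Neighbours in this lower part overlapped: Scn2b was above Scn9a in 10 libraries, and Scn3b above Scn3a in 8.

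Of 5 other sodium channel genes, Scn4a, the alpha subunit of skeletal muscle, had a median of 5.17 CPM per kilobase, the leak channel gene Nalcn 1.05 and Scn7a, which encodes the sodium-sensing channel Nax, 0.613. The sensory neuron genes Scn10a and Scn11a had medians of 0 and 0.0225 CPM per kilobase and did not pass the filter on low counts. Scn10a counts were 297 and 114 in AAV-miR ctrl replicates 3 and 4 and 0 to 7 in the other 11 libraries. These 2 libraries also had the highest sums of dorsal root ganglion markers (Prdm12, Trpv1, Mrgprd and Avil), 54.9 and 23.8 CPM, with 0.358 to 3.96 CPM in the others; the part of such RNA in the counts of Scn9a, a gene of the same sensory neurons, was not tested.

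**Figure D1:**
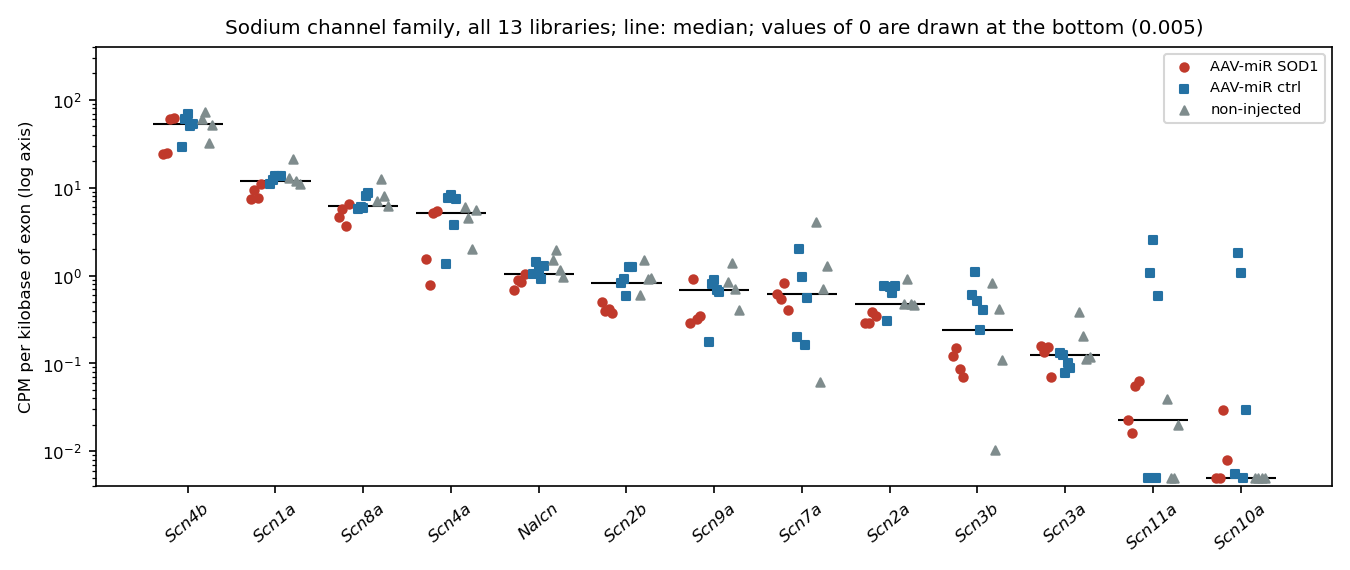
Levels of 13 sodium channel genes in CPM per kilobase of exon (vertical axis, logarithmic), 1 point for each of the 13 libraries, coloured by group, with a line at the median over all libraries. Scn4b is highest (median 53.1), Scn1a and Scn8a follow (11.9 and 6.13), and Scn10a is at a median of 0, drawn at the bottom of the axis.

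The shares of the alpha subunits overlapped between the 3 groups. Of the summed CPM per kilobase of the 5 alpha genes, Scn1a made up 57.3% to 63.3% in the AAV-miR SOD1 libraries, 57.0% to 64.3% in the AAV-miR ctrl libraries and 56.2% to 61.0% in the non-injected libraries. Scn8a made up 29.7% to 35.7%, 27.7% to 36.7% and 32.9% to 37.6% in the same order. Scn9a, Scn2a and Scn3a had medians of 2.99%, 2.51% and 0.631% over all libraries. The ratio of Scn1a to Scn8a, per kilobase, was 1.49 to 2.32 over the 13 libraries, with medians of 1.67, 1.94 and 1.74 in the AAV-miR SOD1, AAV-miR ctrl and non-injected groups. Of the 3 beta genes, Scn4b made up 95.4% to 99.3%.

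The 8 genes were mostly lower in the AAV-miR SOD1 group than in either control group, by amounts that did not pass the adjusted threshold. Against AAV-miR ctrl, 7 of the 8 genes had a log2 fold change below 0, against the non-injected group 8, and against the mean of both control groups 8. Genes below 0 made up 53.7%, 55.1% and 54.2% of all genes tested in these comparisons. The median log2 fold change of the 8 was -0.49, -0.77 and -0.62, and that of all genes tested was -0.05, -0.09 and -0.06. At an adjusted p under 0.05 edgeR's quasi-likelihood test called 0 of the 8 in each, as it called 0% of all genes. At an unadjusted p under 0.05, 4, 4 and 5 of the 8 were lower and none was higher. Of all genes tested, 14.5%, 20.9% and 22.2% passed this rule, 8.54%, 11.5% and 12.1% as lower and 5.99%, 9.36% and 10.2% as higher. At an adjusted p under 0.05 DESeq2 called 0, 1 and 3 of the 8. It called 1.1%, 6.64% and 9.25% of the genes to which it gave an adjusted p (15664, 14991 and 15999 genes). Limma-voom with quality weights called 0, 0 and 1 of the 8, where it called 0%, 0% and 8.4% of all genes. All 3 use the same 4 AAV-miR SOD1 mice, and the last one also holds the control mice of the others, so they do not support each other.

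**Figure D2:**
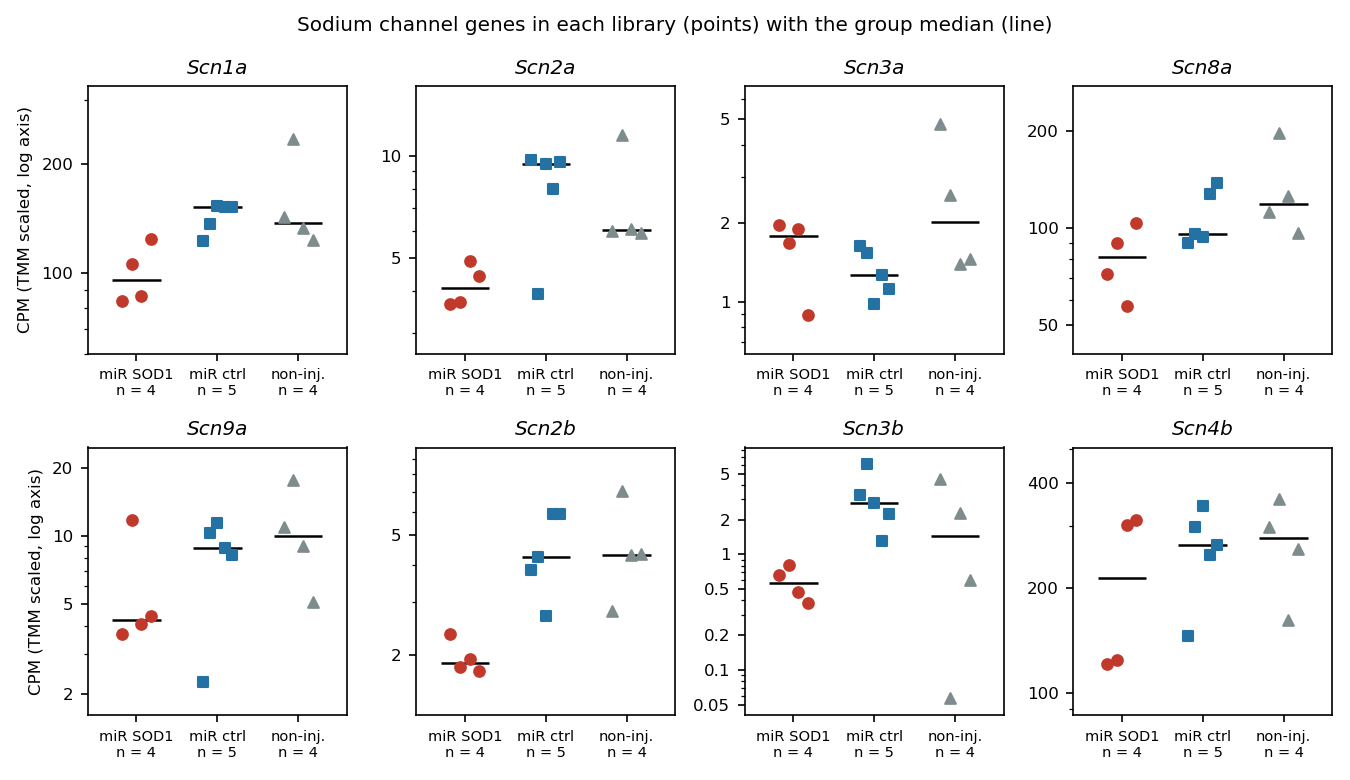
Levels of the 8 genes in each library in CPM (vertical axes, logarithmic, each panel with its own range) by group, with a line at the group median. The 4 AAV-miR SOD1 libraries lie below all 9 control libraries for Scn2b (1.77 to 2.36 against 2.70 to 7.004 CPM), while for Scn4b the groups overlap throughout.

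Scn1a encodes Nav1.1. Its level was 84.0, 106, 86.2 and 124 CPM in AAV-miR SOD1 replicates 1 to 4. It was 123, 137, 153, 152 and 152 CPM in AAV-miR ctrl replicates 1, 3, 4, 5 and 6. The non-injected replicates 2, 3, 5 and 6 had 142.5, 235, 133 and 124 CPM. Only AAV-miR SOD1 replicate 4 reached the lowest control libraries, at 124.0 CPM against 123.8 in non-injected replicate 6 and 123.0 in AAV-miR ctrl replicate 1. In AAV-miR SOD1 the log2 fold change of Scn1a was -0.52 ± 0.21 (SE) relative to AAV-miR ctrl (edgeR unadjusted p = 0.027, adjusted p = 0.301) and -0.67 ± 0.22 against the non-injected group (edgeR unadjusted p = 0.00948, adjusted p = 0.147). Neither passed the adjusted threshold. The unadjusted p against AAV-miR ctrl was above 0.05 without AAV-miR SOD1 replicate 1 (log2 fold change -0.45) or 3 (-0.40), AAV-miR ctrl replicate 3 (-0.48) or 6 (-0.48), or non-injected replicate 2 (-0.47). Without the 2 libraries whose headers contradict their labels it was -0.34 against the non-injected group (edgeR adjusted p = 0.447); non-injected replicate 3 had the highest Scn1a level of all.

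Scn8a encodes Nav1.6, the main channel of the mature initial segment and node. Its level was 72.3, 90.0, 57.2 and 104 CPM in AAV-miR SOD1 replicates 1 to 4. It was 89.9, 96.1, 93.6, 128 and 138.5 CPM in AAV-miR ctrl replicates 1, 3, 4, 5 and 6, and 112, 197, 126 and 96.6 CPM in non-injected replicates 2, 3, 5 and 6. AAV-miR SOD1 replicate 3 was the lowest library and non-injected replicate 3 the highest, and the groups overlapped through AAV-miR SOD1 replicates 2 and 4. For Scn8a the log2 fold change was -0.43 ± 0.25 against AAV-miR ctrl (edgeR adjusted p = 0.429) and -0.72 ± 0.26 against the non-injected group (edgeR unadjusted p = 0.015, adjusted p = 0.156). Without AAV-miR SOD1 replicate 3 the value against the non-injected group was -0.52 (edgeR unadjusted p = 0.0736), without non-injected replicate 3 it was -0.47 (0.072), and without both libraries with contradicting headers it was -0.39 (0.129), so the unadjusted call rests on these libraries. Against AAV-miR ctrl the value was -0.24 without AAV-miR SOD1 replicate 3, -0.58 without AAV-miR SOD1 replicate 4 (edgeR unadjusted p = 0.0493) and -0.42 without both libraries with contradicting headers. Scn1a and Scn8a followed each other closely. The root mean square difference between their log2 CPM, each centred on its own mean over the 13 libraries, was 0.176, and only 118 of the genes tested were closer to Scn1a.

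Scn2a encodes Nav1.2. Its level was 3.65, 3.70, 4.88 and 4.43 CPM in AAV-miR SOD1 replicates 1 to 4, from 70 to 103 counts. It was 9.72, 3.90, 9.45, 7.99 and 9.58 CPM in AAV-miR ctrl replicates 1, 3, 4, 5 and 6, and 6.00, 11.5, 6.07 and 5.90 CPM in non-injected replicates 2, 3, 5 and 6. All 4 AAV-miR SOD1 libraries were below all 4 non-injected libraries, and of the AAV-miR ctrl libraries replicate 3 alone lay within their range. Scn2a had a log2 fold change of -0.97 ± 0.32 against AAV-miR ctrl (edgeR unadjusted p = 0.00933, adjusted p = 0.27) and -0.82 ± 0.33 against the non-injected group (edgeR unadjusted p = 0.0273, adjusted p = 0.187). Both libraries that stood apart within their group, non-injected replicate 3 at 11.5 CPM and AAV-miR ctrl replicate 3 at 3.90 CPM, are those whose headers contradict their labels. Against the non-injected group the unadjusted p was above 0.05 without AAV-miR SOD1 replicate 1 (-0.76) or 2 (-0.75) or without non-injected replicate 3 (-0.53). Without both libraries with contradicting headers the log2 fold change was -1.09 (edgeR adjusted p = 0.314) against AAV-miR ctrl and -0.45 (edgeR adjusted p = 0.438) against the non-injected group.

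Scn9a encodes Nav1.7. Its level was 3.70, 11.8, 4.08 and 4.43 CPM in AAV-miR SOD1 replicates 1 to 4. It was 2.25, 10.3, 11.4, 8.86 and 8.22 CPM in AAV-miR ctrl replicates 1, 3, 4, 5 and 6, and 10.9, 17.7, 9.06 and 5.13 CPM in non-injected replicates 2, 3, 5 and 6. The groups overlapped, since AAV-miR SOD1 replicate 2 was high and AAV-miR ctrl replicate 1 the lowest of all. Scn9a had a log2 fold change of -0.45 ± 0.49 against AAV-miR ctrl (95% interval -1.498 to 0.59) and -0.83 ± 0.51 against the non-injected group (-1.93 to 0.27), with edgeR adjusted p values of 0.701 and 0.372. When each library was left out these values ran from -1.005 to -0.255 and from -1.381 to -0.486. The lowest of both was without AAV-miR SOD1 replicate 2, where the edgeR unadjusted p was 0.0579 and 0.0171. Without both libraries with contradicting headers the values were -0.30 and -0.42.

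Scn3a encodes Nav1.3, which many neurons make before birth and again after axon injury. Its level was 1.96, 1.68, 1.895 and 0.885 CPM in AAV-miR SOD1 replicates 1 to 4, from 14 to 44 counts. It was 1.64, 1.54, 0.975, 1.26 and 1.12 CPM in AAV-miR ctrl replicates 1, 3, 4, 5 and 6, and 4.80, 2.56, 1.398 and 1.46 CPM in non-injected replicates 2, 3, 5 and 6. Non-injected replicate 2 was the highest, and all groups overlapped. Scn3a was the member with a log2 fold change above 0 against AAV-miR ctrl, 0.30 ± 0.44 (95% interval -0.65 to 1.25, edgeR adjusted p = 0.796), and it was -0.66 ± 0.47 against the non-injected group (-1.66 to 0.34, edgeR adjusted p = 0.444). Without non-injected replicate 2 the value against the non-injected group was -0.09. The direction against AAV-miR ctrl turned under 2 of 26 alternatives, which are given in the closing section.

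Of the 8 genes, the beta subunit genes Scn2b and Scn3b had the lowest log2 fold changes and Scn4b, in the comparisons with each control group, was among those nearest to 0. Scn2b encodes beta2, which is linked to the alpha subunit by a disulfide bond. Its level was 2.36, 1.82, 1.94 and 1.77 CPM in AAV-miR SOD1 replicates 1 to 4, from 28 to 53 counts. It was 3.84, 4.24, 2.70, 5.89 and 5.89 CPM in AAV-miR ctrl replicates 1, 3, 4, 5 and 6, and 2.81, 7.004, 4.30 and 4.32 CPM in non-injected replicates 2, 3, 5 and 6. All 4 AAV-miR SOD1 libraries were below all 9 control libraries. The log2 fold change was -1.19 ± 0.35 against AAV-miR ctrl (edgeR unadjusted p = 0.00397, adjusted p = 0.256), -1.22 ± 0.36 against the non-injected group (edgeR unadjusted p = 0.0045, adjusted p = 0.14) and -1.21 ± 0.32 against both control groups (edgeR unadjusted p = 0.00216, adjusted p = 0.096). Scn2b had the lowest adjusted p of the 8 genes in each of these comparisons. The edgeR adjusted p against both control groups was 0.0375 without AAV-miR ctrl replicate 1, where 9.84% of all genes were called, and the DESeq2 adjusted p was 0.0102. Across all alternatives of that comparison it ran from 0.0102 to 0.798.

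Scn3b encodes beta3. It was counted sparsely: 15, 17, 10 and 6 counts in AAV-miR SOD1 replicates 1 to 4, 74, 125, 37, 50 and 66 in AAV-miR ctrl replicates 1, 3, 4, 5 and 6, and 97, 1, 91 and 20 in non-injected replicates 2, 3, 5 and 6. In CPM these were 0.668, 0.816, 0.474 and 0.379, then 3.27, 6.02, 2.78, 1.31 and 2.23, then 4.48, 0.0569, 2.27 and 0.596. All 4 AAV-miR SOD1 libraries were below all 5 AAV-miR ctrl libraries, while the non-injected libraries spread from the lowest level of all to 1 of the highest. For Scn3b the log2 fold change was -2.40 ± 0.83 against AAV-miR ctrl (edgeR unadjusted p = 0.012, adjusted p = 0.274) and -1.65 ± 0.84 against the non-injected group (edgeR unadjusted p = 0.0698, adjusted p = 0.28). Without non-injected replicate 2 the value against the non-injected group was -0.66. It was -2.05 without non-injected replicate 3 (edgeR unadjusted p = 0.00848), -1.95 without non-injected replicate 6 (0.0413) and -1.98 without both libraries with contradicting headers (0.00916). Against AAV-miR ctrl the value ran from -3.313 to -1.707 over the alternatives. With the headers exchanged, Scn3b had an edgeR unadjusted p under 0.05 against the non-injected group (14.8% of all genes) but not against AAV-miR ctrl (19.9%). Without both libraries it was under 0.05 against AAV-miR ctrl as well (13%).

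Scn4b encodes beta4, which is found in muscle as well as in neurons. Its level was 121, 124, 302 and 312 CPM in AAV-miR SOD1 replicates 1 to 4, 145, 299, 343, 249 and 264 CPM in AAV-miR ctrl replicates 1, 3, 4, 5 and 6, and 299, 360, 161 and 257 CPM in non-injected replicates 2, 3, 5 and 6. The libraries fell into 4 at or below 161 CPM and 9 at or above 249 CPM, and each group had at least 1 of the low ones. The log2 fold change was -0.28 ± 0.35 against AAV-miR ctrl (95% interval -1.02 to 0.47, edgeR adjusted p = 0.752) and -0.33 ± 0.37 against the non-injected group (-1.11 to 0.46, edgeR adjusted p = 0.651). When each library was left out the values ran from -0.51 to -0.08 and from -0.56 to -0.13, and without both libraries with contradicting headers they were -0.17 and -0.09. The 4 low libraries, AAV-miR SOD1 replicates 1 and 2, non-injected replicate 5 and AAV-miR ctrl replicate 1, were also the 4 lowest in the summed skeletal muscle markers (at most 21100 CPM, and at least 30850 CPM in the other 9) and in the muscle channel gene Scn4a (at most 14.01 CPM against at least 26.4 CPM). With the skeletal muscle score as a term in the fit, an alternative chosen after the data were seen, the log2 fold change of Scn4b against both control groups was -0.07 in place of -0.30.

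Groups that did not overlap were counted for all genes. In log2 CPM, 2 of the 8 genes (Scn2b and Scn3b) did not overlap between AAV-miR SOD1 and AAV-miR ctrl, where 3.73% of all genes tested did not. Between AAV-miR SOD1 and the non-injected group 2 (Scn2a and Scn2b) did not overlap, where the share was 11.7%. Between AAV-miR SOD1 and all 9 control libraries 1 (Scn2b) did not overlap, where the share was 1.82%. The counts for each control group follow the labels. Non-injected replicate 3 had Scn3b at -2.848 log2 CPM, below AAV-miR SOD1 (-1.117 to -0.155). AAV-miR ctrl replicate 3 had Scn2a at 1.995, within AAV-miR SOD1 (1.9 to 2.311). By their headers Scn3b would overlap against AAV-miR ctrl and Scn2a would not, and Scn2a would overlap against the non-injected group. The shares of all genes were not counted that way.

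Between the control vector and no injection the 8 genes lay on both sides of 0. The median log2 fold change of AAV-miR ctrl against the non-injected group was -0.10, that of all genes was -0.01, and 6 of the 8 were below 0, where 52% of all genes were. EdgeR called 0 of the 8 at an adjusted p under 0.05, each with an adjusted p of 1. DESeq2 also called 0 (0.0115% of the genes to which it gave an adjusted p), as did limma-voom (0% of all genes). At an unadjusted p under 0.05 there was 1, Scn3a, at -0.96 ± 0.44 (edgeR unadjusted p = 0.0467, adjusted p = 1), where 3.61% of all genes passed this rule, 2.24% as lower and 1.38% as higher. The value was -0.14 for Scn1a, 0.14 for Scn2a, -0.28 for Scn8a, -0.38 for Scn9a, -0.02 for Scn2b, 0.75 for Scn3b and -0.05 for Scn4b. Without both libraries with contradicting headers Scn2a, at 0.64 (edgeR unadjusted p = 0.025), took the place of Scn3a, at -1.01 (0.0841), and with the headers exchanged Scn2a was at 0.82 (0.00336). The Scn3a value was -0.44 without non-injected replicate 2. The 95% interval was -0.59 to 0.30 for Scn1a and -0.74 to 0.69 for Scn2b, so differences of that size between the control groups are within what these libraries allow. No member had log2 CPM that did not overlap between the control groups (0.816% of all genes).

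**Figure D3:**
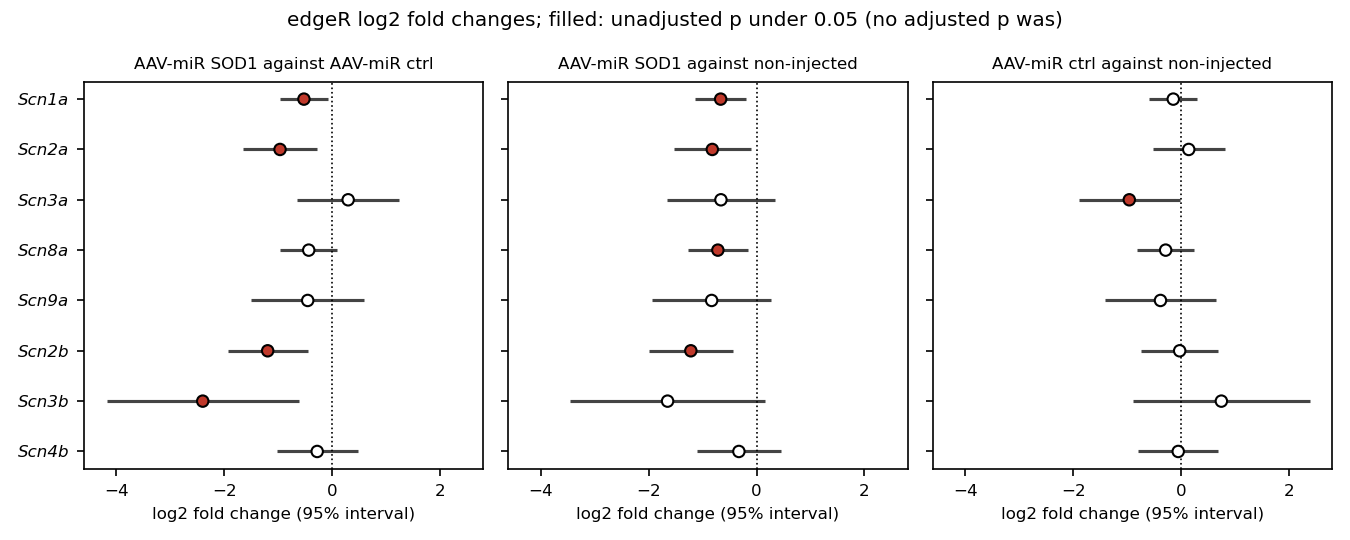
EdgeR log2 fold changes (horizontal axes) of the 8 genes with their 95% intervals in 3 comparisons, filled where the unadjusted p is under 0.05. Where AAV-miR SOD1 is compared, with AAV-miR ctrl or with the non-injected group, 4 genes each are filled and all of them are below 0, down to -2.40 for Scn3b, and between the control groups Scn3a alone is filled.

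The motoneuron markers moved in the same direction. In AAV-miR SOD1 against both control groups all 6 had a log2 fold change below 0 with an edgeR unadjusted p under 0.05 (median -1.13), where 12.1% of all genes did. Among them were Chat, the enzyme that makes acetylcholine, at -0.91 ± 0.24 (edgeR adjusted p = 0.096) and Slc18a3, the vesicular acetylcholine transporter, at -1.24 ± 0.39 (edgeR adjusted p = 0.107). Of the 4 libraries lowest in the motoneuron marker sum, AAV-miR SOD1 replicates 1, 3 and 4 and AAV-miR ctrl replicate 1, all 4 were also the lowest in Scn9a, and 3 were in Scn1a, in Scn8a and in Scn2b. The 4 libraries highest in the sum were the 4 highest in Scn8a. Other marker sums shared libraries as well. The 4 lowest in the astrocyte sum held 3 of the 4 lowest in Scn9a and in Scn2b. The 4 lowest in the skeletal muscle sum held 3 of the 4 lowest in Scn1a and in Scn8a. The 4 highest in the oligodendrocyte sum were the 4 highest in Scn3b, which shared 0 of its 4 highest with the motoneuron sum.

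With the motoneuron marker score as a term in the edgeR fit, 1 of the 8 genes, Scn3b, had an unadjusted p under 0.05 in each comparison of AAV-miR SOD1 with controls, where 5.86%, 5.43% and 6.11% of all genes did. Against both control groups the log2 fold change of Scn8a was then -0.04 in place of -0.58, that of Scn1a -0.28 in place of -0.59, that of Scn2b -0.54 in place of -1.21 and that of Scn9a 0.10 in place of -0.64. Scn3b was at -3.02 in place of -2.02 (edgeR unadjusted p = 0.00459, adjusted p = 0.789). For Scn2a, at -0.89 without a score, no alternative of this comparison gave a value above -0.695. Its highest value over the alternatives was -0.808 against AAV-miR ctrl and -0.395 against the non-injected group. The median of the 8 genes with the motoneuron score was -0.43 in place of -0.62. The score itself differs between the groups, so the marker level and the group cannot be told apart by such a fit. With the skeletal muscle score in its place 5 of the 8 had an unadjusted p under 0.05 against both control groups, where 19.3% of all genes did. Without a score it was also 5, where 22.2% of all genes did. With a glial score it was 4 (Scn1a, Scn2a, Scn8a and Scn2b, without Scn3b), where 29.6% of all genes did.

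**Figure D4:**
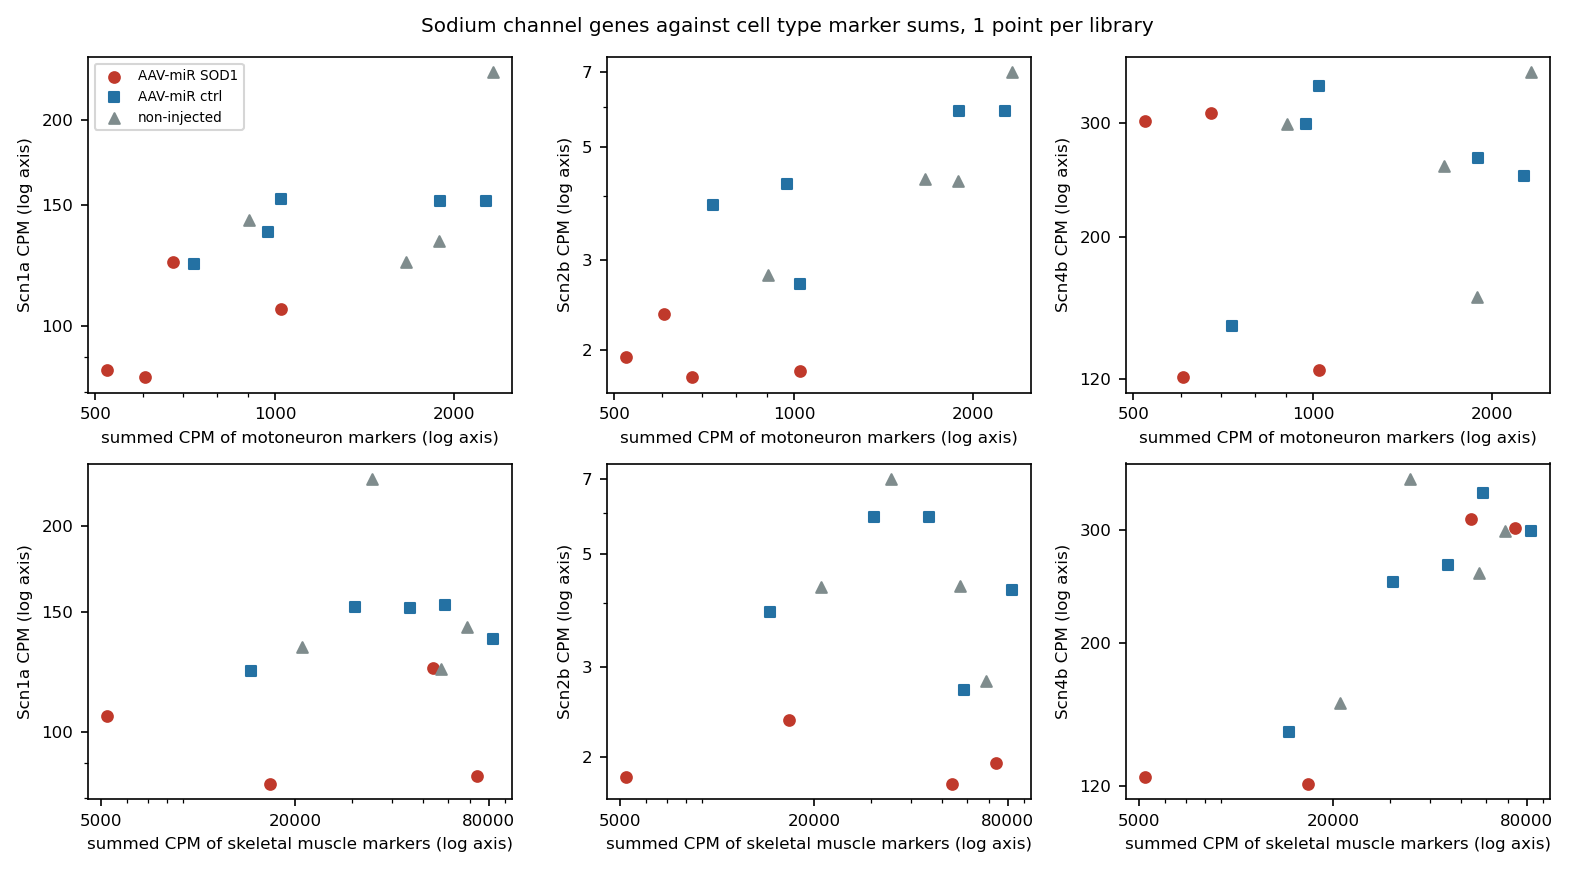
Levels of Scn1a, Scn2b and Scn4b (vertical axes, CPM, logarithmic) against the summed CPM of the 6 motoneuron markers (upper row) and of the 4 skeletal muscle markers (lower row), 1 point per library. The AAV-miR SOD1 libraries lie between 523 and 1025 CPM of motoneuron markers, and are the 4 lowest in Scn2b, and for Scn4b the 4 libraries at or below 161 CPM are the 4 lowest in muscle markers.

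**Figure D5:**
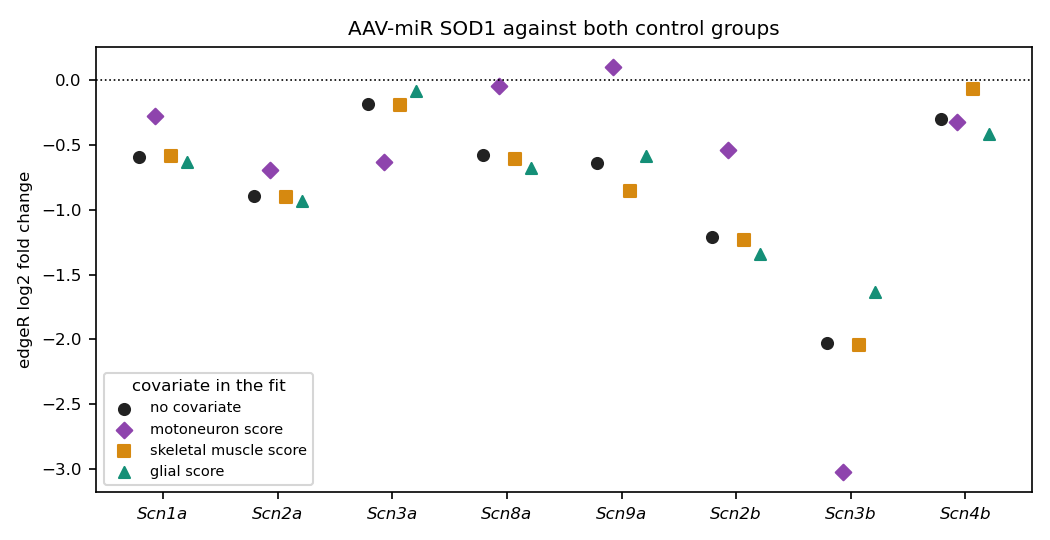
EdgeR log2 fold changes (vertical axis) of AAV-miR SOD1 against both control groups for the 8 genes, from fits with no score and with a motoneuron, skeletal muscle or glial marker score as a term. The motoneuron score moves Scn8a from -0.58 to -0.04 and Scn3b from -2.02 to -3.02, and the skeletal muscle score moves Scn4b from -0.30 to -0.07.

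The 3 of the 5 other sodium channel genes that passed the filter were below 0 too against both control groups, 1 of them at an unadjusted p under 0.05 and none at an adjusted p under 0.05 (edgeR). The shares of all genes tested were 54.2%, 22.2% and 0%. Nalcn, whose product carries a resting sodium leak, was at -0.57 ± 0.21 (edgeR unadjusted p = 0.0198, adjusted p = 0.147). Scn4a was at -0.65 ± 0.54 and Scn7a at -0.87 ± 0.81.

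Proteins that place and regulate the channels were read from 4 lists. Against both control groups 54.2% of all genes tested were below 0 and 22.2% had an unadjusted p under 0.05, which stands beside each count that follows. Of 8 genes for the scaffold of the initial segment and node, 8 were below 0, 5 at an unadjusted p under 0.05. The 4 with the smallest p were the adhesion molecule genes Cntn1 (-0.85 ± 0.21, edgeR adjusted p = 0.096), Nrcam (-0.58 ± 0.18, edgeR adjusted p = 0.107) and Cntn2 (-0.74 ± 0.28, edgeR adjusted p = 0.148), and the spectrin gene Sptan1 (-0.70 ± 0.23, edgeR adjusted p = 0.113). Cntn1 ranged from 56.1 to 71.9 CPM in the AAV-miR SOD1 group and from 78.0 to 174 CPM in the 9 control libraries, without overlap. Of the 8 scaffold genes 2 did not overlap in log2 CPM, where 1.82% of all genes tested did not. Ank3, which encodes the ankyrin-G that anchors the channels, was at -0.43 ± 0.23 (edgeR adjusted p = 0.286).

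Of 12 genes for proteins that bind or regulate the channels, 12 were below 0, 5 at an unadjusted p under 0.05. Fgf12, a fibroblast growth factor homologue that binds the tail of the alpha subunit and shifts its inactivation, was at -0.98 ± 0.27 (edgeR adjusted p = 0.097), with 24.0 to 49.3 CPM under AAV-miR SOD1 and 40.9 to 93.9 CPM in the controls, which overlap. Its relative Fgf11 was at -0.64 ± 0.24 (edgeR adjusted p = 0.148), the calmodulin gene Calm2 at -0.70 ± 0.26 (edgeR adjusted p = 0.143), and Unc79, a partner of the leak channel, at -0.67 ± 0.27 (edgeR adjusted p = 0.165).

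The sodium pump expels the sodium that the channels let in. Of 3 of its subunit genes 2 were below 0, 1 at an unadjusted p under 0.05: Atp1b1 at -1.33 ± 0.44 (edgeR adjusted p = 0.117). Atp1b2 was at -0.32 ± 0.27 and Atp1b3 at 0.22 ± 0.22, with unadjusted p values above 0.05. Of 5 transcription and splicing regulators 3 were below 0, 2 at an unadjusted p under 0.05. The splicing factor genes Rbfox1, Rbfox2 and Rbfox3 were at -0.89 ± 0.26 (edgeR adjusted p = 0.101), -0.37 ± 0.16 (edgeR adjusted p = 0.187) and -0.58 ± 0.28 (edgeR adjusted p = 0.242). Rest, a repressor that keeps neuronal genes such as sodium channel genes silent in other cells, was at 0.59 ± 0.28 (edgeR adjusted p = 0.233). None of the genes of these 4 lists passed the adjusted threshold.

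For each member, the gene outside the family with the most similar pattern was found by the root mean square difference of centred log2 CPM over the 13 libraries. Scn1a was closest to Ttll7 (0.085), Scn8a to Adgrl1 (0.102), Scn4b to Atp5g1 (0.121), Scn2b to Tyro3 (0.233), Scn2a to Nexmif (0.28), Scn3a to Rps15-ps2 (0.317), Scn9a to Nudt11 (0.348) and Scn3b to Gm53 (0.968). A gene that did not vary at all would differ from Scn1a by 0.368 and from Scn3b by 1.49, so the match is close for Scn1a, Scn8a and Scn4b and loose for Scn3b.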

How the data were processed

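The authors deposited 1 table of unnormalized read counts for each library, with processing by cutadapt 1.8, STAR 2.5.2b and HTSeq 0.6.1 on GRCm38, per the submitters' processing notes; settings, annotation and strand rule are not given in the sources used here. Each table has 48709 gene rows and 5 summary rows, which were left out of library sizes. Reads in no feature made up 1.71% to 3.16% and ambiguous reads 1.67% to 3.00% of all entries. Symbols came from GENCODE M21 (48349 identifiers, 99.986% of counts).

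Groups and replicate numbers came from the titles. Genes were filtered with filterByExpr (minimum count 10, minimum total 15; 17403 kept), scaled by TMM and tested with edgeR 4.0.16 (R 4.3.3), quasi-likelihood F test on all 13 libraries with 10 residual degrees of freedom, Benjamini-Hochberg adjustment over all genes and a threshold of 0.05. Standard errors are the log2 fold change divided by the root of F. Log2 CPM used a prior count of 2. Levels were divided by the union of exons in kilobases. A marker score is the mean centred log2 CPM of a list. Scripts were tested on simulated counts. All alternatives, among them DESeq2 1.42.0 and limma 3.58.1, are in the closing section.

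The members, gene lists and tests were chosen with earlier results of these data known. Some genes of the fixed lists, and their part in list sums and counts, are not reported here. Named are all members, the other sodium channel genes reported, the 4 genes with the smallest p of each partner list in AAV-miR SOD1 against both control groups, Ank3 (chosen after its values were seen), the most similar gene per member and markers. The gene tables list mouse genes and no row for human SOD1, so the microRNA's target was not analysed here and does not check the labels.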

Additional observations from a re-analysis of the deposited data

Results flagged for a closer look

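In 4 of 24 sets of values (8 genes in 3 groups) 1 library stood far from the others of its group by Dixon's criterion, which chance alone meets in about 1 of 20 sets, or 1.2 of 24. Scn2a in AAV-miR ctrl replicate 3 was at 1.995 log2 CPM, below the other 4 libraries at 3.01 to 3.29. Scn2a in non-injected replicate 3 was at 3.534 log2 CPM, above the other 3 at 2.58 to 2.62. These are the 2 libraries whose column headers contradict their labels. Scn9a in AAV-miR SOD1 replicate 2 was at 3.566 log2 CPM, above the other 3 at 1.92 to 2.17, and in AAV-miR ctrl replicate 1 it was at 1.224 log2 CPM, below the other 4 at 3.05 to 3.52.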

How the results depend on the processing

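Each result was recomputed under 27 alternatives (26 where both control groups were pooled, and 1 fewer for Scn3a, which failed the filter of at least 50 counts in 4 libraries). Scn1a, Scn2a, Scn2b, Scn3b and Scn4b kept a log2 fold change below 0 in AAV-miR SOD1 against either control group or both under all of them. At an adjusted p under 0.05, 1 of the 8 genes passed against the non-injected group with DESeq2, and 1 with the glial score. The shares were 6.64% of the genes to which DESeq2 gave an adjusted p and 5.69% of all genes. Against both control groups 3 passed with DESeq2 (Scn2a, Scn2b and Scn3b), where 9.25% of the genes with a DESeq2 adjusted p did. With limma-voom 1 passed (Scn2b, 8.4% of all genes). With the glial score 1 passed (Scn2b), among 2084 genes in all (12%). When each library was left out 0 to 1 passed. The 1 was Scn2b without AAV-miR ctrl replicate 1, which also gave 1694 genes in all (9.84%), where the fit with all libraries gave 0. The number of the 8 genes at an unadjusted p under 0.05 was 1 with the motoneuron score in each of the 3 comparisons (5.86%, 5.43% and 6.11% of all genes). The fit without a score had 14.5%, 20.9% and 22.2% of all genes. Against AAV-miR ctrl the number was 2 in the libraries numbered 1 to 4 (4.88% of all genes). Against the non-injected group it was 2 with the header exchange (14.8%) and 2 without both libraries concerned (12.7%). Against both control groups it was 2 to 6 when each library was left out, with 2 without AAV-miR SOD1 replicate 3 (20.8% of all genes) and 6 without AAV-miR SOD1 replicate 2 (17.3%). Between the control groups it was 0 with other scalings (RLE, upper quartile), no filter, the 50-count filter, limma-voom, the groups compared alone, the skeletal muscle score or the replicate block (2.67% to 5.1% of all genes). It was 2 in the libraries numbered 1 to 4 (5.07%), and 0 to 1 when each library was left out (2.93% to 5.66%).

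Directions turned as follows, in log2 fold changes. Against AAV-miR ctrl, Scn3a was at -0.105 with the replicate block and -0.096 with the motoneuron score, which also put Scn8a at 0.01 and Scn9a at 0.165. With that score Scn9a was at 0.037 against the non-injected group and 0.101 against both, where Scn3a ran from -0.292 to 0.131 when each library was left out. Between the control groups the header exchange gave 0.282 for Scn1a, 0.264 for Scn8a, 0.126 for Scn9a, 0.372 for Scn2b, -0.786 for Scn3b and 0.099 for Scn4b. Leaving out both libraries concerned gave 0.143 for Scn1a, 0.029 for Scn8a, 0.288 for Scn2b, -0.013 for Scn3b and 0.078 for Scn4b. Scn2a was at -0.171 in the libraries numbered 1 to 4. Limma-voom gave 0.043 for Scn9a and 0.161 for Scn4b. Scn2b was at 0.01 with upper quartile scaling, 0.004 with DESeq2, 0.002 with the replicate block, 0.202 with the motoneuron score and 0.025 with the glial score, which put Scn4b at 0.009. When each library was left out, Scn1a ran from -0.245 to 0.108, Scn2b from -0.19 to 0.246 and Scn4b from -0.222 to 0.12. The cause was not tested.

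Whether the replicate number pairs the mice was not settled. Over 8 pairs with the same number the correlations of deviations ran from -0.189 to 0.243, 3 of them over 0.1. Of 13 libraries, 3 correlated best with their own number. The spread of pairs with different numbers is not given here, so these values cannot exclude pairing. With the replicate block the number of the 8 genes at an unadjusted p under 0.05 was 3 against AAV-miR ctrl, 1 against the non-injected group, 0 between the control groups and 4 where these were pooled. The shares of all genes were 8.82%, 8.28%, 2.67% and 11.1% in the same order. The alternatives without both libraries and with the skeletal muscle score were chosen after seeing the data. Scn3a and Scn3b had 1 to 125 counts per library, with the lowest medians of the 8 genes (40 and 37).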
